A study of Mus musculus with 6 samples.

Results

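The genes described here are 28 enzymes and regulators of cholesterol and fatty acid synthesis, chosen from a list of genes under the control of the sterol regulatory element binding proteins (SREBPs) and matched to the count table by Entrez gene ID. All 28 were found among the 24467 gene IDs, and all 28 were among the 14771 genes that passed the filter on low counts. RNA had been sequenced from mouse embryonic stem (ES) cells in 3 groups of 2 libraries each. The control carries floxed (F/F) alleles of Hp1α and Hp1β, the genes Cbx5 and Cbx1, and is labelled wild type. Its sample titles name no clone, and it is taken here as 1 clone. The other groups were clones 1 and 2 of the Hp1α/β double knockout (DKO). Every group was kept in knockout serum replacement medium with leukaemia inhibitory factor (LIF), 3 µM CHIR99021 (a GSK3 inhibitor) and 0.8 µM PD184352 (a MEK inhibitor). With the control taken as 1 clone, an effect of the genotype and a difference between clones cannot be told apart. Whether replicate libraries stem from separate cultures is not stated in the labels, so the p-values measure the spread between libraries, which may be technical. In bulk RNA, a lower level of a transcript in each cell and a smaller share of cells that express it cannot be told apart.

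Cholesterol is built from acetyl-CoA through mevalonate, farnesyl diphosphate, squalene and lanosterol, and fatty acids are built from the same precursor by a separate set of enzymes. When sterols in the endoplasmic reticulum are low, the escort protein SCAP carries SREBPs to the Golgi, where they are cut, and the released fragments enter the nucleus and switch on these genes. When sterols are high, INSIG proteins hold SCAP and the SREBPs back, so the genes of the pathway are known to move together in many cell types.

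The libraries held 24628872 to 34641560 reads in genes, and the members had between 180 and 25186 reads in a library. Cbx5 stood at 813 and 809 CPM (reads of a gene scaled to the size of its library) in the control libraries and at 191 to 205 in the DKO libraries, and Cbx1 at 227 and 223 against 43.9 to 49.3. The remaining reads may come from exons outside the deleted stretch, whose position is not given in the sources used here. All 10 ES cell markers were expressed, with a summed level of 5238 to 5421 CPM in the control and 5158 to 5526 CPM in the DKO libraries. In the edgeR test used below, Nanog rose in DKO cells (log2 change 0.33, adjusted p = 0.0281). Tdgf1 fell (-0.28, adjusted p = 0.0415), and the other 8 ES cell markers did not pass. The summed level of 14 fibroblast and feeder cell markers was 17.2 to 18.5 CPM in the control and 17.0 to 20.2 CPM in the DKO libraries, and Twist2 had 0 reads. Of the 6 that passed the filter, Acta2 fell in DKO cells (log2 change -1.90, adjusted p = 0.00629) and Col6a3 rose (2.26, adjusted p = 0.000990). The summed level of 6 primitive endoderm markers was lower in the DKO libraries (4.91 to 6.54 against 7.07 to 8.83 CPM). None of the 6 passed an adjusted p of 0.05. Of them, 5 had log2 changes below 0, and Sox7 had 0.59. The summed level of 5 trophectoderm markers was higher in the DKO libraries (17.5 to 24.8 against 13.0 to 17.2 CPM). The trophectoderm markers did not move in 1 direction: Gata3 rose (1.42, adjusted p = 0.0290), Krt8 fell (-0.95, adjusted p = 0.0327), and Eomes, the largest part of the DKO sums, had 0.93 (adjusted p = 0.0505). The part of these markers in the results below was not tested.

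Promoter sequences were matched for 22 of the 28 members in RefSeq on GRCm38.p6, with 27 promoters in all. Each runs from 250 bases before a listed start site to 50 bases after it. Some of these sites lie inside the gene, as for the only windows of Acaca and Lpin1, which hold no CCAAT. Fdft1, Fdps, Scd1, Scd2, Sqle and Stard4 had no entry. The 250 bases before the start are shown for 3 members that fell in DKO cells or in 1 clone. Of these, Hmgcs1 holds the searched letters TCACCCCAC, and Insig1 and Cyp51 have no exact match to them. Hmgcs1 lies on the plus strand at chr13:119690101-119690350, Insig1 on the plus strand at chr5:28071162-28071411 and Cyp51 on the minus strand at chr5:4104698-4104947. Each is written 5′ to 3′ along the gene, and capitals mark every match on either strand to TCACCCCAC (a core of the sterol regulatory element), CCAAT (bound by NF-Y) or GGGCGG (bound by Sp1).
Hmgcs1: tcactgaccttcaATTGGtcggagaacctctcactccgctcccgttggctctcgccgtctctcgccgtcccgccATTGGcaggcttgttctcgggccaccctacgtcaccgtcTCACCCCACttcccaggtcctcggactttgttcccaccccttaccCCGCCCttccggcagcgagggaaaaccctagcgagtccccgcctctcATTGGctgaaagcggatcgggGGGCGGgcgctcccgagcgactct
Insig1: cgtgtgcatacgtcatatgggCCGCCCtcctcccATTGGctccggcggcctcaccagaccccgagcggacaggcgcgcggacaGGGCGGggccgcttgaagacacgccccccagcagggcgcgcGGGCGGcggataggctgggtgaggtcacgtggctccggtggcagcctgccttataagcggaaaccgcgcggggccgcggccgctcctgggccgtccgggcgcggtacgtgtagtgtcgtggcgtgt
Cyp51: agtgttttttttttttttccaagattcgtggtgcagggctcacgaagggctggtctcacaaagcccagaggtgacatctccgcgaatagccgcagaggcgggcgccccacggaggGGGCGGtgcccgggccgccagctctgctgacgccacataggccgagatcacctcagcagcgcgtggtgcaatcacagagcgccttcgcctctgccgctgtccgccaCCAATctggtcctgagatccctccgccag
The sterol letters TCACCCCAC occurred in 1 of the 22 member genes, Hmgcs1, with the first base at -137 from the start, and in 0.551% of all 32851 promoters of this length. The wider form TCACNCCAC, which contains the former, found the same site among the members and 1.24% of all promoters. CCAAT or its reverse complement was present in 19 of 22 member genes and in 74.1% of their promoters, beside 37.4% of all promoters and 38.2% of the 14642 promoters of tested genes. GGGCGG was present in 18 of 22 member genes and in 74.1% of their promoters, beside 35.7% of all promoters and 60.2% of those of tested genes. CCAAT was found in 5 of the 5 promoter-matched members called in any comparison and in 14 of the 17 others. For GGGCGG the counts were 4 of 5 and 14 of 17. The 5 mix members that rose with members that fell, and Fdft1, Sqle, Scd1 and Stard4 were called but had no entry. These counts are too few to tell whether the letters go with the response. A match describes the letters in the window, and a missing match says only that these letters are not in it.

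Levels per kb of gene width spanned a range of 86.2-fold among the members in control cells. The stearoyl-CoA desaturase Scd2 stood highest at 133 CPM per kb, followed by Hmgcs1 at 93.9, the ATP citrate lyase Acly at 87.0 and the farnesyl diphosphate synthase Fdps at 74.2. The sterol reductase Hsd17b7 was lowest at 1.54 CPM per kb, below Tm7sf2 at 2.17 and the sterol carrier Stard4 at 2.56. The order was nearly the same in DKO cells, where no member moved by more than 5 ranks, and Hmgcs1 stood at 65.1 CPM per kb.

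**Figure D1:**
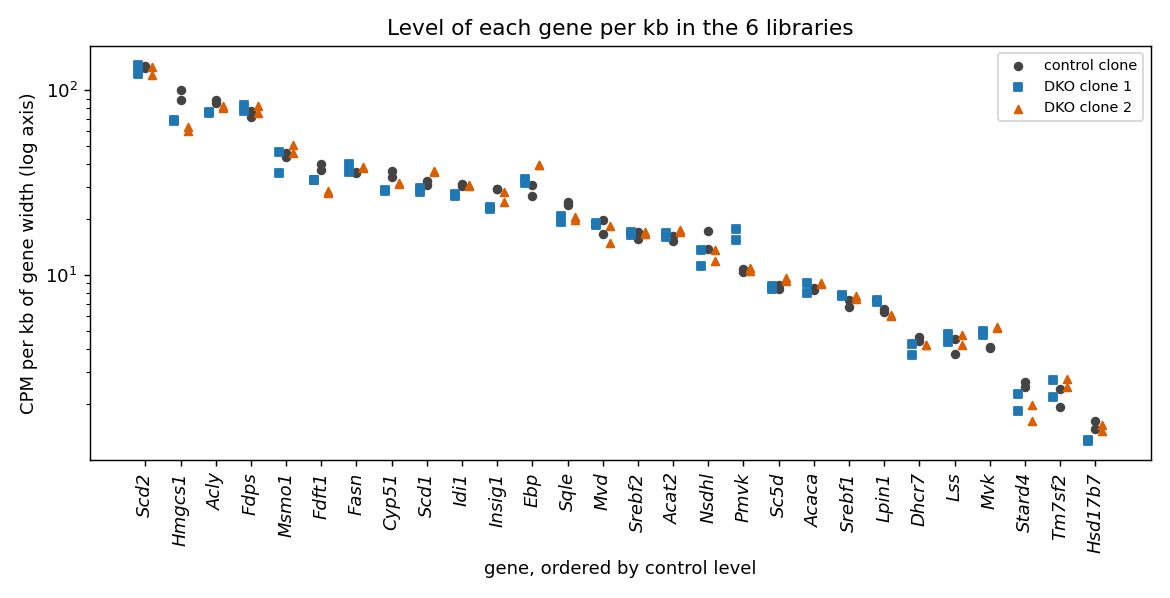
Level of each of the 28 genes in CPM per kb of gene width (log axis) in each of the 6 libraries, ordered by the control mean. Points are single libraries. The genes run from Scd2 at 133 to Hsd17b7 at 1.54 CPM per kb in control cells, and for most genes the 3 groups lie close together.

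The first comparison asked whether loss of HP1α and HP1β changed the pathway, with the 4 DKO libraries set against the 2 control libraries. Of the 28 members, 3 fell and 0 rose at an adjusted p under 0.05 (edgeR quasi-likelihood test, Benjamini-Hochberg adjustment over all 14771 genes): Hmgcs1, Fdft1 and Sqle. These make HMG-CoA, squalene and squalene epoxide. They are 10.7% of the members, where 3.62% of all tested genes fell and 5.06% rose. At an unadjusted p under 0.05, 8 members were lower and 2 higher (28.6 and 7.14%), where 11.3% of all tested genes were lower and 11.9% higher. The median change of the members was 0.01 on the log2 scale, beside 0.000383 for all tested genes, with 14 members above 0 and 14 below. For 25 members, the 95% interval of the change lay within 1.5-fold either way. The fit treats the libraries of a clone as independent, and the control is taken as 1 clone. The intervals therefore bound the difference between these libraries, not the effect of the genotype.

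Hmgcs1 (Entrez 208715, chr13:119690351-119708260), the cytosolic HMG-CoA synthase at the entry to the mevalonate pathway, had 457 and 406 CPM in the control libraries, 316 and 314 in clone 1, and 276 and 291 in clone 2. Every DKO library was below both control libraries, and clone 2 was below clone 1. The mean was 432 ± 35.7 CPM (SD, n = 2) in the control and 299 ± 19.4 (SD, n = 4) in DKO cells, or 69.3% of control. The log2 change was -0.53 (SE 0.0761, adjusted p = 0.00245), with a 95% interval of -0.70 to -0.36. The 2 control libraries differed by more than the libraries of either clone did, and without control replicate 1 the change was -0.44 and the adjusted p 0.0668.

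Fdft1 (Entrez 14137, chr14:63145150-63181687), squalene synthase, which commits farnesyl diphosphate to sterols, had 156 and 168 CPM in the control, 137 and 138 in clone 1 and 118 and 120 in clone 2. The 3 groups did not overlap. Its mean went from 162 ± 8.70 CPM (SD, n = 2) to 128 ± 10.7 (SD, n = 4), a log2 change of -0.34 (SE 0.0827, adjusted p = 0.0307). Sqle (Entrez 20775, chr15:59315092-59331193), squalene epoxidase, a rate-limiting step of the sterol branch, had 133 and 138 CPM in the control, 116 and 107 in clone 1 and 114 and 110 in clone 2. Both clones lay below the control to a like degree, at 82.3 and 82.9% of it. The log2 change of Sqle was -0.28 (SE 0.0644, adjusted p = 0.0250). Without control replicate 1 the adjusted p was 0.132 for Fdft1 and 0.140 for Sqle, and without control replicate 2 it was 0.271 and 0.219. Of the DKO libraries, leaving out either of clone 2 ended the call for Fdft1 (adjusted p = 0.0662 and 0.0597), and leaving out replicate 2 of clone 1 or of clone 2 ended that for Sqle (0.0608 and 0.0534). The call for Fdft1 also ended with chromosomes centred (-0.25, adjusted p = 0.0611), where the median change of chromosome 14 was -0.04 in clone 1 and -0.14 in clone 2, and with a replicate block (adjusted p = 0.0587).

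**Figure D2:**
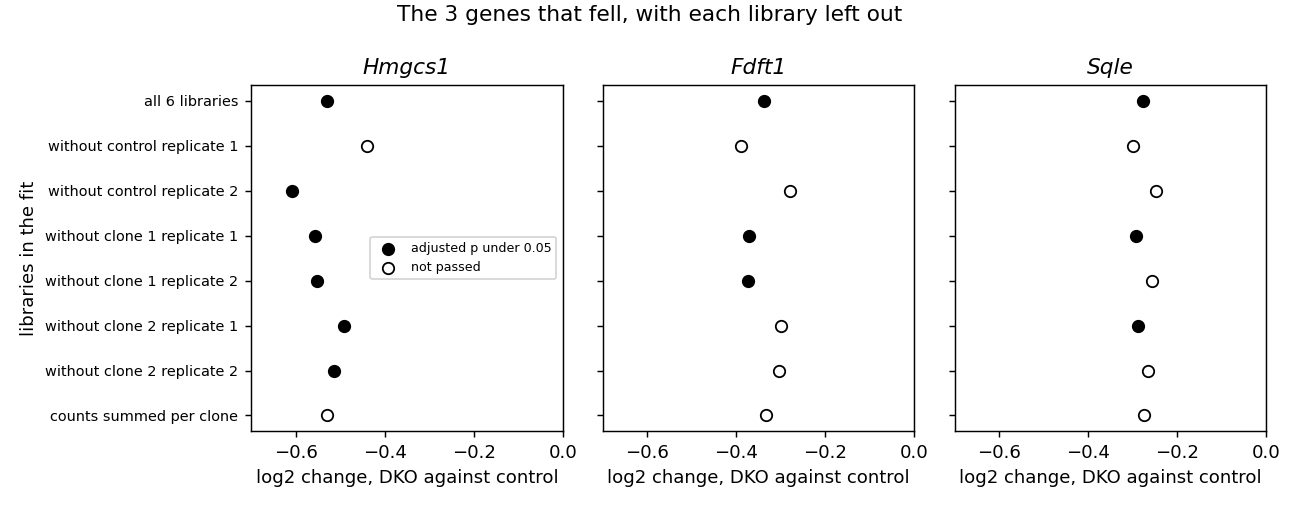
Log2 change of Hmgcs1, Fdft1 and Sqle in DKO against control cells with all 6 libraries, with each library left out in turn, and with counts summed per clone. Filled points passed an adjusted p of 0.05 and open points did not. All points lie below 0, and Hmgcs1 failed the test without control replicate 1 and with counts summed per clone.

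The other 25 members did not pass the test in DKO cells, with changes between -0.41 and 0.36 on the log2 scale. All 4 DKO libraries were below both control libraries for 9 members, which is 32.1% of them where 16.9% of all tested genes had this order, and above both for 3 members, or 10.7%, where the share of all tested genes was again 16.9%. The 9 were Hmgcs1, Fdft1, Sqle, Cyp51, Nsdhl, Dhcr7, Insig1, Stard4 and Acly, and the 3 were Mvk, Ebp and Srebf1. The summed level of the 7 genes from Acat2 to Fdps was 812 and 781 CPM in the control libraries. It was 659 to 703 CPM in the DKO libraries, with no overlap. Hmgcs1 was the largest contributor in each library, so the lower sum does not describe the 7 genes as a set. Of these, 4 had changes above 0 and 3 below, with a median of 0.09. The 3 genes of squalene and lanosterol formation summed to 337 and 346 CPM in the control and 278 to 305 in the DKO libraries, again with no overlap. Fdft1 and Sqle, already called, were the larger contributors in each library, and Lss had a change of 0.13. This lower sum therefore does not describe the 3 genes as a set either. The sums of the 8 genes from lanosterol to cholesterol (613 and 620 against 526 to 653 CPM) and of the 5 genes of fatty acid synthesis (1846 and 1850 against 1709 to 1879 CPM) overlapped between the genotypes.

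**Figure D3:**
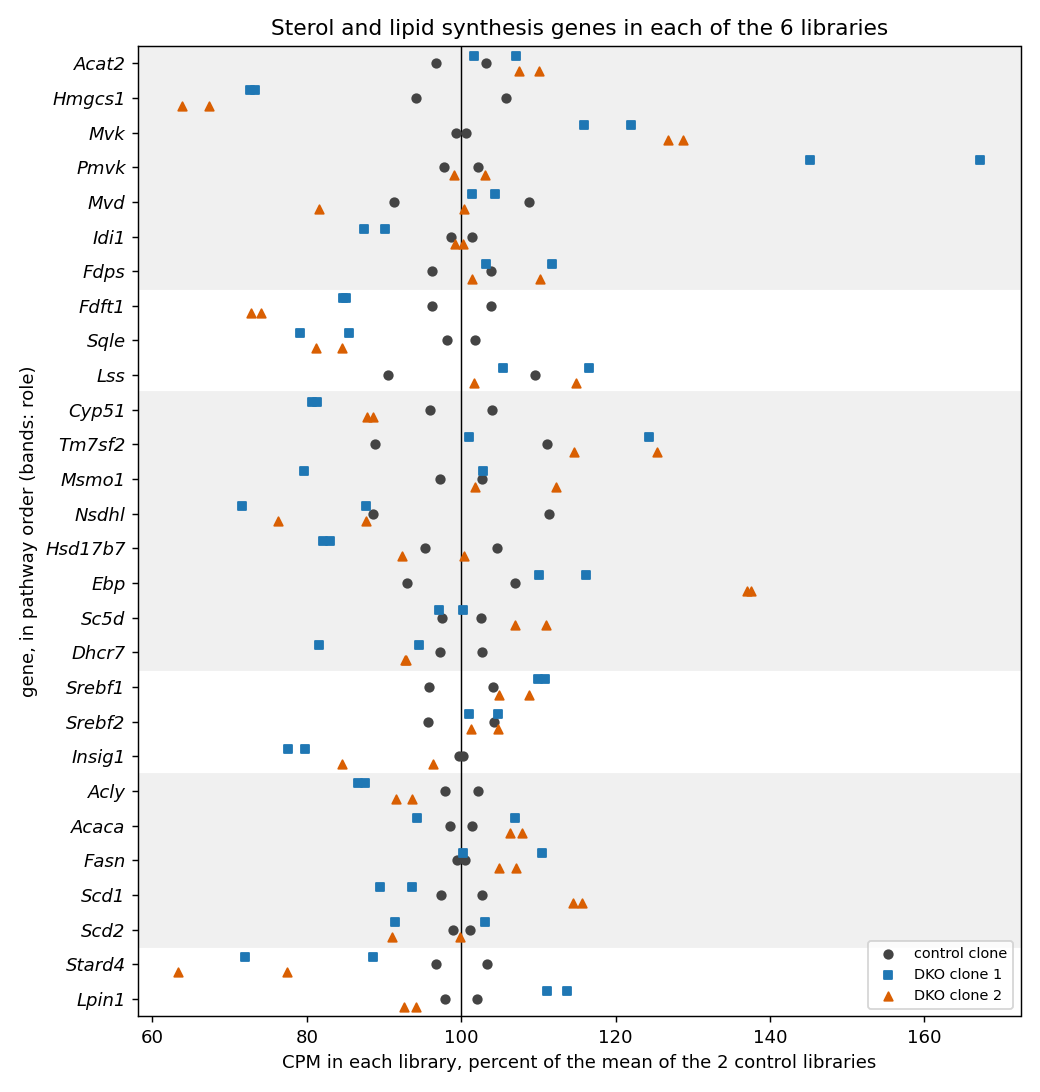
Level of each gene in every library as a percentage of the mean of the 2 control libraries, in pathway order, with bands for the roles. Points are single libraries. All DKO points of Hmgcs1, Fdft1 and Sqle lie left of both control points, clone 1 stands apart for Pmvk and clone 2 for Ebp, and the points of 16 of the 28 genes overlap between genotypes.

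Among the other enzymes of the mevalonate route, the mevalonate kinase Mvk had 10.83 and 10.97 CPM in the control and 12.6 to 14.0 in the DKO libraries. Its log2 change of 0.30 (SE 0.111) had an adjusted p of 0.131. The acetoacetyl-CoA thiolase Acat2, the decarboxylase Mvd, the isomerase Idi1 and Fdps had changes of 0.09, -0.04, -0.09 and 0.09, none of which passed. The lanosterol synthase Lss, which closes the sterol rings, had 48.7 and 40.2 CPM in the control and 45.2 to 51.9 in the DKO libraries, a change of 0.13 (adjusted p = 0.475).

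After lanosterol, none of the 8 enzymes passed in DKO against control, where 3.62% of all tested genes fell and 5.06% rose. Cyp51, the lanosterol demethylase, came nearest: it had 162 and 149 CPM in the control, 127 and 126 in clone 1 and 137 and 138 in clone 2, and its change of -0.24 (SE 0.0702) had an adjusted p of 0.0617. The sterol dehydrogenase Nsdhl had 39.4 and 49.6 CPM in the control and 31.9 to 39.0 in the DKO libraries, with a change of -0.31 (SE 0.118, adjusted p = 0.145). Its control libraries lay far apart, and without control replicate 2 the change was -0.13. Msmo1, the sterol methyl oxidase, had 282 and 267 CPM in the control and 219 to 308 in the DKO libraries, and its change was -0.01. The changes of Tm7sf2, Hsd17b7, Sc5d and Dhcr7, which act on the sterol rings, were 0.22, -0.16, 0.05 and -0.15, with adjusted p-values from 0.435 to 0.760.

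The transcription factors themselves were measured at levels near those of the control. Srebf2, which encodes the SREBP chiefly tied to sterol genes, had 113 and 123 CPM in the control and 119 to 123 in the DKO libraries. Its change was 0.04 (SE 0.0656, adjusted p = 0.757), with a 95% interval of -0.10 to 0.19. Srebf1, whose products drive mainly fatty acid genes, had 41.3 and 38.0 CPM against 41.5 to 43.9, a change of 0.12 with an interval of -0.06 to 0.30 (adjusted p = 0.410). Insig1, the retention factor and itself an SREBP target, had 90.7 and 90.2 CPM in the control, 72.1 and 70.1 in clone 1 and 87.2 and 76.5 in clone 2. All DKO libraries were lower, and the change of -0.24 (SE 0.0901) had an adjusted p of 0.134. Protein levels and SREBP cleavage are not measured by these data.

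No gene of fatty acid synthesis passed in DKO cells, 0 of 5 in either direction, where 3.62% of all tested genes fell and 5.06% rose. A count of 0 of 5 does not set the group apart from those shares. At an unadjusted p under 0.05, 1 was lower and 0 higher, where 11.3% of all tested genes were lower and 11.9% higher. The lower gene was Acly, which makes cytosolic acetyl-CoA for both routes. It had 449 and 469 CPM in the control and 398 to 430 in the DKO libraries, without overlap, and a change of -0.15 (SE 0.0622, adjusted p = 0.164). The acetyl-CoA carboxylase Acaca and the fatty acid synthase Fasn had changes of 0.05 and 0.08, and the interval of Fasn ran from -0.06 to 0.22. The change of Scd2 was -0.05, with an interval of -0.21 to 0.10. Of the remaining pair, Stard4 had 14.8 and 13.8 CPM in the control and 9.07 to 12.7 in the DKO libraries, a change of -0.41 (SE 0.140, adjusted p = 0.106), and the phosphatidate phosphatase Lpin1 had a change of 0.04.

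Each clone was then set against the control in a fit with 3 groups; both comparisons use the same control libraries, so their values are given side by side and their overlap is not read as a result. In clone 1, 5 members fell (17.9%, where 6.47% of all tested genes fell) and 1 rose (3.57%, where 8.79% rose). In clone 2, 4 fell (14.3%, where 7.08% of all tested genes fell) and 1 rose (3.57%, where 7.89% rose). The median change of the members was -0.03 in clone 1 and 0.01 in clone 2, beside -0.01 and -0.000912 for all tested genes. The members with no call had changes of -0.33 to 0.25 in clone 1 and of -0.29 to 0.35 in clone 2.

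Hmgcs1 fell in both clones, with log2 changes of -0.45 (SE 0.0715, adjusted p = 0.000807) in clone 1 and -0.61 (SE 0.0717, adjusted p = 9.25e-05) in clone 2, to 73.0 and 65.6% of control. Both calls held under all 15 alternatives tried. Fdft1 also fell in both, with -0.24 (adjusted p = 0.0306) in clone 1 and -0.45 (SE 0.0676, adjusted p = 0.000590) in clone 2, where the call held under the same alternatives. Sqle fell in both, with -0.28 (adjusted p = 0.0153) and -0.27 (adjusted p = 0.0186). Cyp51 fell in clone 1, with -0.30 (SE 0.0678, adjusted p = 0.00830) and had a change of -0.18 in clone 2 (adjusted p = 0.0933). Insig1 fell in clone 1, with -0.35 (SE 0.0776, adjusted p = 0.00853) and had -0.14 in clone 2 (adjusted p = 0.243). Stard4 fell in clone 2, with -0.51 (SE 0.146, adjusted p = 0.0327) and had -0.32 in clone 1. The smaller calls turned on single libraries. Fdft1 in clone 1 had an adjusted p of 0.0560 to 0.186 when any library but control replicate 1 was left out. Without control replicate 1 the adjusted p was 0.0795 for Cyp51 in clone 1 and 0.145 for Stard4 in clone 2. Sqle in clone 2 then had 0.0502. Without control replicate 2 it was 0.0931 for Sqle in clone 1, 0.109 for Sqle in clone 2 and 0.0809 for Stard4. Without clone 1 replicate 2 it was 0.0532 for Insig1 and 0.109 for Sqle in clone 1. Leaving out replicate 1 or 2 of clone 2 gave 0.0752 and 0.164 for Sqle there, and leaving out its replicate 2 gave 0.255 for Stard4.

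The genes that rose did so in 1 clone each. Pmvk (Entrez 68603, chr3:89454541-89469014), the phosphomevalonate kinase, had 17.8 and 18.6 CPM in the control, 30.4 and 26.4 in clone 1 and 17.98 and 18.71 in clone 2. Only the clone 1 libraries stood apart, at 156% of control. Its log2 change was 0.64 (SE 0.104, adjusted p = 0.00100) in clone 1 and 0.02 (adjusted p = 0.946) in clone 2. The median change of all genes on chromosome 3, where Pmvk and Fdps lie, was 0.28 in clone 1 and 0.08 in clone 2, and after each chromosome's median was subtracted the change of Pmvk in clone 1 was 0.36 (adjusted p = 0.0415). The part of the chromosome's shift in the change of Pmvk was not tested further. Ebp (Entrez 13595, chrX:8185329-8193512), the sterol isomerase, had 61.5 and 70.7 CPM in the control, 76.7 and 72.7 in clone 1 and 90.9 and 90.5 in clone 2. Its level rose in clone 2 to 137% of control, a log2 change of 0.46 (SE 0.0809, adjusted p = 0.00175), and its change over both clones was 0.32 (adjusted p = 0.0987).

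**Figure D4:**
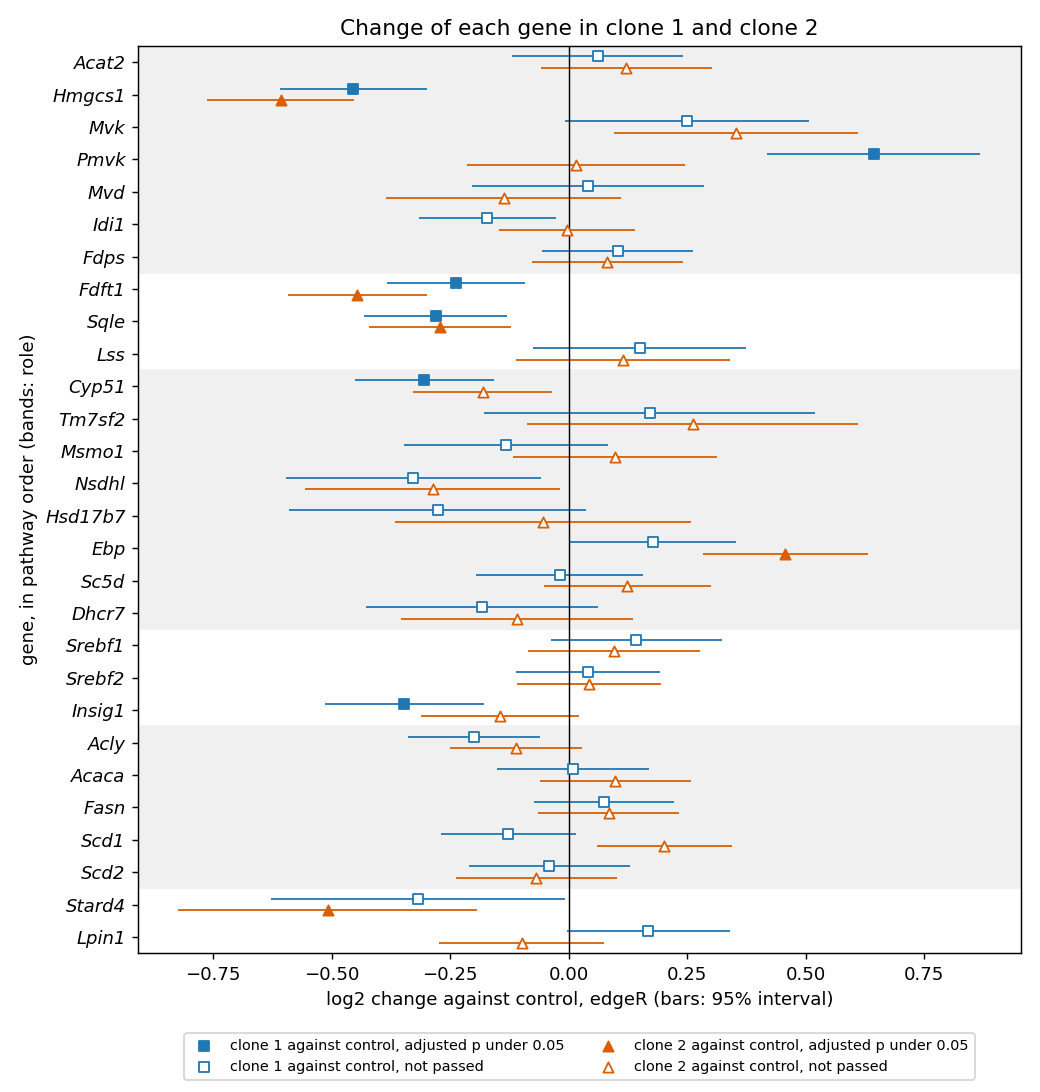
Log2 change of each of the 28 genes against the control in clone 1 and in clone 2, which share the control libraries, with 95% intervals from the 3-group fit. Filled points passed an adjusted p of 0.05. Hmgcs1, Fdft1 and Sqle were called in both clones, Pmvk was called as higher in clone 1, and Ebp as higher in clone 2.

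The clones were compared directly in the same fit, without the control libraries entering the contrast. Of the 28 members, 1 was higher in clone 2 (3.57%, where 2.53% of all tested genes were) and 1 lower (3.57%, where 3.77% were). Pmvk was lower in clone 2 by a log2 difference of -0.63 (SE 0.106, adjusted p = 0.00413). Scd1 (Entrez 20249, chr19:44394450-44407709), the desaturase that makes oleate, had 148 and 156 CPM in the control, 136 and 142 in clone 1 and 175 and 174 in clone 2. The 3 groups of Scd1 did not overlap, with the control in between, and the difference between the clones was 0.33 (SE 0.0664, adjusted p = 0.0113). Neither clone passed for Scd1 against the control. Its paralog Scd2, which ends 87.6 kb before Scd1 starts, had 747 and 663 CPM in clone 1 and 724 and 660 in clone 2, and overlapped; reads that match both paralogs could be split by the authors' counting, which is not given in the sources used here.

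The differences between the clones for Hmgcs1 (-0.15, adjusted p = 0.245), Fdft1 (-0.21, adjusted p = 0.0921), Insig1 (0.20, adjusted p = 0.156) and Ebp (0.28, adjusted p = 0.0600) did not pass, so the calls of Insig1 in clone 1 alone and of Ebp in clone 2 alone are not shown to differ between clones. The 8 genes from lanosterol to cholesterol all had values above 0 in clone 2 against clone 1, between 0.04 and 0.28. Their median was 0.13, and none passed. At an unadjusted p under 0.05, 2 of them were higher (25%), where 9.57% of all tested genes were. Of all tested genes, 7466 of 14771 were above 0. All 26 members with no call had intervals within 1.5-fold either way in this comparison. When clone 2 replicate 1 was left out, Pmvk had an adjusted p of 0.0543 and Scd1 one of 0.0960. Scd1 had 0.0747 with clone 1 replicate 1 left out, and 0.0840 with clone 2 replicate 2 left out.

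Other genes of sterol and lipid metabolism were counted from 3 lists. Of 37 further genes of sterol, isoprenoid and fatty acid synthesis, 1 rose in DKO cells (2.70%, where 5.06% of all tested genes rose), and the median change was 0.01. The mitochondrial acetyl-CoA carboxylase Acacb rose, with 35.5 and 36.6 CPM in the control, 47.4 and 45.9 in clone 1 and 67.7 and 66.1 in clone 2, a change of 0.65 (SE 0.162, adjusted p = 0.0322). Left out 1 at a time, control replicate 1, control replicate 2 and clone 2 replicate 1 gave Acacb adjusted p-values of 0.234, 0.199 and 0.0516.

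Of 24 tested genes of sterol uptake, transport, storage and LXR response, 1 fell (4.17%, where 3.62% of all tested genes fell) and 0 rose (where 5.06% did), with a median of 0.03. At an unadjusted p under 0.05, 3 were lower and 2 higher (12.5 and 8.33%). Of all tested genes, 11.3% were lower and 11.9% higher at that p. Only 1 gene of the list was called at the adjusted threshold. It was Abca1, the cholesterol exporter, with 19.4 and 17.7 CPM in the control and 11.4 to 13.8 in the DKO libraries, a change of -0.52 (SE 0.114, adjusted p = 0.0182, but 0.209 and 0.0911 without control replicates 1 and 2). Of 18 tested genes of fatty acid oxidation, 2 rose (11.1%, where 5.06% of all tested genes rose) and 1 fell (5.56%, where 3.62% fell), with a median of 0.04. The thiolase Acaa2 fell, with 43.7 and 47.2 CPM in the control and 26.7 to 29.7 in the DKO libraries, a change of -0.70 (SE 0.0835, adjusted p = 0.00121). The electron carriers Etfb and Etfdh rose, by 0.34 (adjusted p = 0.0201) and 0.39 (adjusted p = 0.0436); Etfb had 0.158 and 0.167 without control replicates 1 and 2, and Etfdh had 0.0755 to 0.251 with either control library or either clone 1 library left out. Etfdh lies on chromosome 3 and had a change of 0.20 (adjusted p = 0.131) with chromosomes centred.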

How the data were processed

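RNA was sequenced in 6 libraries, and the authors deposited raw counts of reads for each Entrez ID beside a gene width. Reads were aligned with STAR 2.5.0a to mm10 (GRCm38), per the submitters' processing notes; for the counting tool, annotation, strand and multiply matching reads, nothing is given in the sources used here. The deposited counts were whole numbers. Symbols and positions were matched for 24437 of 24467 IDs; the 30 others held 0.389 to 1.62% of a library's reads. The tests used edgeR 4.0.16 under R 4.3.3: filterByExpr with 3 groups, TMM, and the two-sided quasi-likelihood F test, adjusted by Benjamini and Hochberg over 14771 genes with a threshold of 0.05. DKO against control had genotype as its only term (4 residual degrees of freedom), and comparisons of clones used 3 groups (3 residual degrees of freedom). CPM is scaled by TMM; levels per kb use the deposited width. SEs come from the F statistic. Replicates differed by far more than the sampling noise, with a chi-square per gene of 41.6 (control), 11.5 (clone 1) and 12.1 (clone 2).

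Members and lists were chosen with earlier results of these data known. All members are accounted for; full values are given for those called in any comparison and up to 8 others with the smallest adjusted p in DKO against control, and up to 3 genes of each other list could be named by the same order. Alternatives included other scalings and filters, DESeq2 1.42.0, limma 3.58.1 (voom), counts summed per clone, the mean of the clone effects, a replicate block, centred chromosomes and leaving out each library. The fits were tested on simulated data. Some results of the other lists are not reported here.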

Additional observations from a re-analysis of the deposited data

Results flagged for a closer look

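Dixon's ratio at the 95% level was computed over the 4 DKO libraries of each of the 28 members. It sets the gap between an extreme library and its nearest neighbour against the whole range. For 4 independent values from 1 population, chance passes this limit in about 1 of 20 groups. The DKO libraries are 2 from each of 2 clones, so that rate need not hold here. The limit was passed for 2 members, Dhcr7 with a ratio of 0.859 and Acaca with 0.885. In both, clone 1 replicate 2 was low, at 14.8 CPM against 16.8 to 17.1 for Dhcr7, and at 112 CPM against 126 to 128 for Acaca. Without that library the change of Dhcr7 in DKO cells was -0.10 in place of -0.15, and neither gene had passed the test. The effects of the clones differed by the direct test for Pmvk, with a log2 difference of -0.628 in clone 2 against clone 1, and for Scd1, with 0.329.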

How the results depend on the processing

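Of 579 values of named genes under alternatives, 500 kept their direction and their side of the threshold, 68 no longer passed, 8 newly passed and 3 changed sign. The number of members called in DKO against control was 3, and became 5 with DESeq2 (1 rose, 4 fell), 8 for the mean of the clone effects (2 rose, 6 fell) and 0 with counts summed per clone, a fit that leaves 3 samples and called 2 genes of all tested. Of all 14771 tested genes, 1283 were called in the main fit, 1609 with DESeq2, 2628 for the mean of the clone effects and 790 with chromosomes centred. With chromosomes centred the number of members called was 2. With single libraries left out, the number ran from 0 to 3 in DKO, 4 to 8 in clone 1 (6 with all libraries), 3 to 5 in clone 2 (5 with all) and 0 to 3 between the clones (2 with all). In DKO, 0 members were called without control replicate 1, and 1 (Hmgcs1) each when control replicate 2 or clone 2 replicate 2 was left out; all genes called then fell from 1283 to 246 and 313 without control replicates 1 and 2. A clone left with 1 library was assumed to vary like the others. Between the clones 4 members were called with no filter on low counts. For clone 1, clone 2 and the comparison between them, the share of all genes called in these settings is not given here. Those counts are therefore not read as a result about the members. Replicate numbers are shared across groups without a stated pairing, and the differences between replicates 1 and 2 correlated at 0.03, -0.08 and 0.03 between groups; with a replicate block 2 members (Hmgcs1 and Sqle) and 928 of all genes were called in DKO. The change of Scd1 in DKO lay between -0.0115 and 0.109 with single libraries left out, and that of Fdps became -0.0859 with chromosomes centred. Hmgcs1 in DKO had an adjusted p of 0.216 with counts summed per clone. The causes were not tested.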
